A study of Saccharomyces cerevisiae with 13 samples.

Results

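Gene expression in yeast treated with SMER2 was compared with that on 5 arrays taken as 1 reference group. The comparison used 6 of the 13 arrays of the study: the single SMER2 array, 3 arrays of the solvent control DMSO, and 1 array each of SMER4 and SMER5. Of 5716 probe sets, 5498 had 1 gene name, and keeping 1 probe set for each gene left 5449 genes. All 13 arrays held RNA of Saccharomyces cerevisiae strain BY4741, grown at 30 °C in YPD, a rich medium, to mid-log phase. Cells were treated for 30 min. SMER1 to SMER5 were given at 20 µM, and rapamycin, used alone or with SMER1, at 100 nM. SMERs are small molecule enhancers of rapamycin, known by code names. Rapamycin inhibits TOR complex 1, through which nutrients control growth. The study set each SMER against the solvent and against rapamycin to look for expression signatures of the SMERs. The solvent carried by the treated cultures, the number of cultures behind each group and whether replicates came from separate cultures were not given, so p-values measure the spread between these arrays, which may be technical.

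Yeast cells take up inorganic phosphate through high-affinity transporters, Pho84 and Pho89, and release it from organic esters with secreted acid phosphatases such as Pho5. When phosphate is scarce, the cyclin-dependent kinase inhibitor Pho81 holds back the Pho80-Pho85 kinase, the transcription factor Pho4 enters the nucleus, and these genes are switched on together. Vacuolar polyphosphate, made by the VTC complex, is the cell's phosphate store. Hsf1 controls the chaperone genes of the heat shock response, and the Hap complex with its activating subunit Hap4 controls genes of mitochondrial respiration.

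The values are log2 signal intensities, a difference is SMER2 minus the reference mean on the log2 scale, and ± gives its standard error from limma, a linear model fitted over all genes. Calls were made at an adjusted p under 0.05, after Benjamini-Hochberg adjustment across the 5449 genes. The SMER2 array had no replicate and was assumed to vary like the other arrays. An exact permutation test of 1 array against 5 cannot give a one-sided p below 0.167, so each call rests on that assumption. DMSO, SMER4 and SMER5 were pooled with earlier results of these data known. The median absolute difference from DMSO was 0.071 for SMER4 and 0.085 for SMER5, beside 0.1 for SMER2. SMER4 and SMER5 had 1 array each, so small differences cannot show that these compounds left the cells like the solvent. GRE2, given below, was higher with both than on any DMSO array.

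The SMER2 array stood close to the reference arrays. Across genes, it correlated with them at r between 0.9853 and 0.9904, and they correlated with each other at r between 0.9841 and 0.9952. The median absolute difference from the mean of the other reference arrays was 0.051 to 0.135 for a reference array, the highest being DMSO replicate 1, and the SMER2 array's was 0.093. Each of the other treated arrays stood farther off, at 0.282 to 0.545. The SMER2 array had the widest spread of values of the 13 arrays (SD 2.04, against 1.94 to 2.01 on the reference arrays). In the dimmest 25% of genes its median difference was −0.10, and in the brightest 25% it was 0.002. The part of this spread in the falls of dim genes was not tested, and the values after quantile normalization are given beside those falls.

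Few genes were called between SMER2 and the reference. With a single SMER2 array, a gene that was not called cannot be taken as unchanged. limma called 27 of 5449 genes, 0.496%, of which 5 rose (0.0918%) and 22 fell (0.404%). Of the called genes, 8 fell at least 2-fold and 0 rose as far. The median difference of all genes was −0.025, and at an unadjusted p under 0.05 there were 185 genes higher and 368 lower. The SMER2 value lay below all 5 reference arrays for 1288 genes (23.6%) and above all 5 for 821 (15.1%). Without the SMER4 array 10 genes were called, and without DMSO replicate 3 there were 34.

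**Figure D1:**
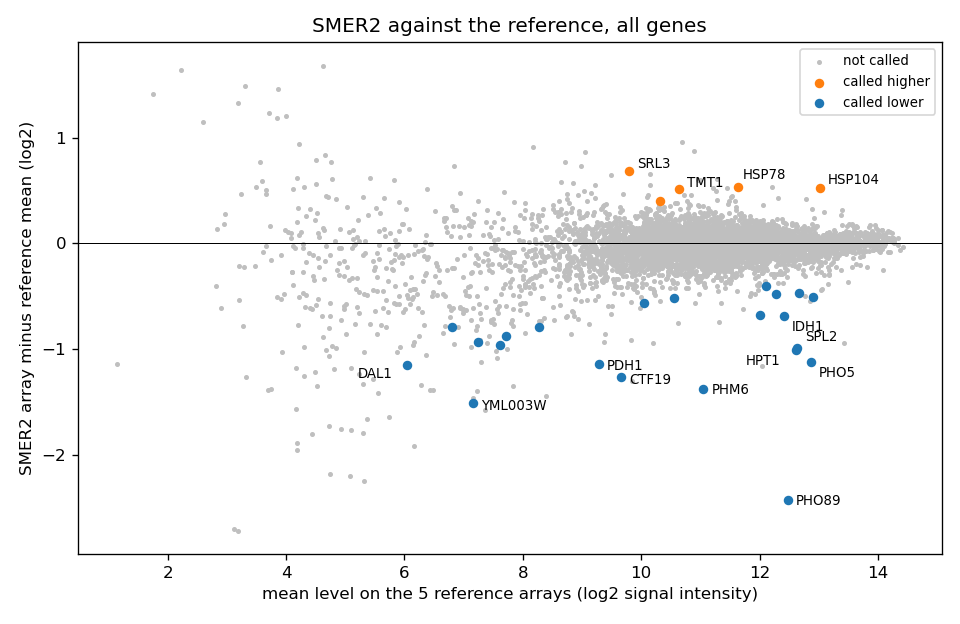
Difference between the SMER2 array and the mean of the 5 reference arrays (log2, vertical axis) against the mean log2 signal of the reference (horizontal axis), 1 point per gene, with called genes coloured and the most changed ones named. PHO89, at a reference mean of 12.48, lies farthest below the other bright genes, at −2.43.

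Several genes of the phosphate regulon fell with SMER2. The list was drawn up from general knowledge of Pho4 targets and phosphate-regulated genes, with earlier results of these data known. Of 19 measured genes of this list, 6 fell (31.6%, against 0.404% of all genes) and 0 rose. The list's median difference was −0.367, against −0.025 over all genes, and 15 of its 19 members lay below all 5 reference arrays, against 23.6% of all genes. After quantile normalization the median was −0.311 and 5 members were called, CTF19 not among them. In RNA from whole cultures, fewer cells that express a gene and less RNA in each cell cannot be told apart.

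Of the phosphate transporters, PHO89, a sodium-coupled phosphate symporter of the plasma membrane, fell most of all genes called. Its signal was 12.53, 12.48 and 12.46 on the DMSO arrays, 12.36 with SMER4, 12.56 with SMER5, and 10.04 with SMER2. The 5 reference arrays lay within a narrow band and the SMER2 array was far below it. The difference was −2.43 ± 0.14, which is 5.40-fold lower (limma adjusted p = 0.000115). PHO84, the proton-coupled high-affinity transporter, stood at 13.57 with SMER2, inside the reference range of 13.41 to 13.81 (difference −0.13 ± 0.13, adjusted p = 0.885). The 2 high-affinity transporter genes thus had unlike values on the same array. Among the low-affinity carriers, PHO87, PHO90 and PHO91 differed by 0.08, −0.07 and 0.11, with limma adjusted p between 0.779 and 0.956. GIT1, a glycerophosphoinositol permease gene, differed by −0.53 at a low signal of 5.61 with SMER2 and was not called.

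Of the phosphatases, PHO5, the main secreted acid phosphatase, fell. Its signal was 12.87, 12.86 and 12.69 with DMSO, 12.95 with SMER4, 12.95 with SMER5 and 11.74 with SMER2, so the SMER2 array was well below all the others. The difference was −1.13 ± 0.13, or 2.18-fold lower (limma adjusted p = 0.00687). PHO11, another secreted acid phosphatase, was at 12.48 with SMER2 and between 13.20 and 13.55 on the reference arrays. Its difference of −0.95 ± 0.20 was not called (adjusted p = 0.0969), and its probe set is one that is shared between similar transcripts. PHO12, its near-identical relative, was not measured under a name here. PHO8, the vacuolar alkaline phosphatase, was at 12.63, 12.72 and 12.61 with DMSO, 12.69 with SMER4, 12.70 with SMER5 and 12.20 with SMER2, a fall of 0.47 ± 0.07 (adjusted p = 0.0175). PHM8, a nucleotide phosphatase gene, differed by −0.60 ± 0.11 and was not called (adjusted p = 0.0613).

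SPL2, a small regulator that lowers low-affinity phosphate uptake, fell. It was at 12.77, 12.59 and 12.58 with DMSO, 12.55 with SMER4, 12.63 with SMER5 and 11.63 with SMER2. Its difference was −0.99 ± 0.11, or 1.98-fold lower (limma adjusted p = 0.00621). PHM6, a phosphate-regulated gene whose product has no established role, was at 11.23, 10.90 and 10.99 with DMSO, 11.01 with SMER4, 11.09 with SMER5 and 9.66 with SMER2. The fall was 1.38 ± 0.13, or 2.61-fold (limma adjusted p = 0.00238). CTF19 encodes a subunit of the kinetochore and lies beside VTC3 in the R64 gene order. It was at 9.34, 9.76 and 9.53 with DMSO, 9.81 with SMER4, 9.86 with SMER5 and 8.39 with SMER2, a fall of 1.27 ± 0.19 (adjusted p = 0.0245). Its reference arrays spread more widely than those of the other 5 called members, and its call held in 10 of the 20 alternative settings that kept the gene.

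The polyphosphate and signalling genes of the regulon had smaller differences, none of them called. VTC1, VTC2, VTC3 and VTC4, subunits of polyphosphate polymerase, differed by −0.14 to −0.37, with limma adjusted p between 0.341 and 0.804. PHO81, the kinase inhibitor, differed by −0.29 ± 0.16 (adjusted p = 0.615), and KCS1, an inositol pyrophosphate kinase gene, by −0.26. In a list of phosphate sensing genes and other phosphate carriers, added after the values were seen, limma called 0 of 10, and 0 had an unadjusted p under 0.05. In it PHO4 differed by −0.35, PHO80 by −0.13, PHO85 by 0.08 and PHO2, which binds with Pho4, by −0.10. PHM7, a membrane protein gene, was the one member of the regulon above all reference arrays, at 7.57 with SMER2 against 6.65 to 7.09 (difference 0.73 ± 0.17, adjusted p = 0.157).

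**Figure D2:**
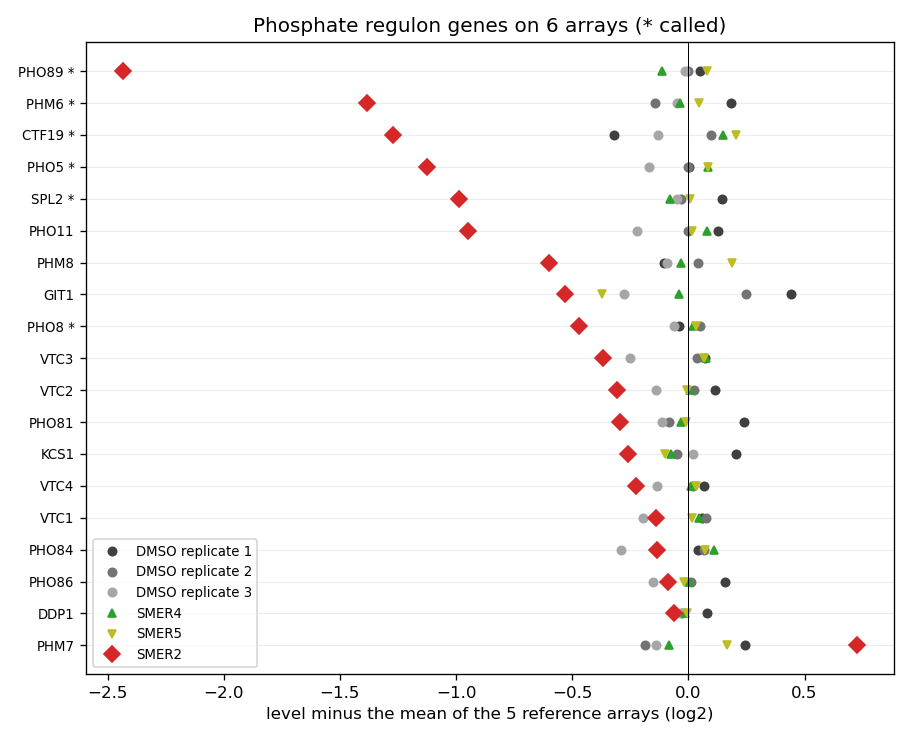
Level of each of the 19 phosphate regulon genes on the 3 DMSO arrays, the SMER4 and SMER5 arrays and the SMER2 array (1 mark per array, diamond for SMER2), as the log2 difference from the mean of the 5 reference arrays, with called genes starred. The SMER2 mark of PHO89 lies at −2.43, that of PHO84 lies among the reference marks, and that of PHM7 lies to their right at 0.73.

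IDH1, ACO1, NDE1, ALD4 and PDH1, which encode mitochondrial enzymes, fell, and most other measured genes of their pathways were not called. IDH1, a subunit of the NAD-dependent isocitrate dehydrogenase, was at 12.35, 12.38 and 12.30 with DMSO, 12.49 with SMER4, 12.51 with SMER5 and 11.72 with SMER2. It fell by 0.69 ± 0.09 (limma adjusted p = 0.0128). ACO1, aconitase, was at 12.87, 12.93 and 12.81 with DMSO, 12.94 with SMER4, 12.93 with SMER5 and 12.38 with SMER2, a fall of 0.51 ± 0.07 (adjusted p = 0.0175). These 2 genes act on consecutive steps of the tricarboxylic acid cycle and both lay below every reference array. IDH2, the partner subunit of Idh1, was at 12.61 with SMER2 and at 12.91 to 13.12 in the reference, and its difference of −0.43 ± 0.08 stood just short of the threshold (adjusted p = 0.0593).

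Of 20 measured genes of the tricarboxylic acid cycle and pyruvate dehydrogenase, a list added after the values were seen, 2 fell (10%, against 0.404% of all genes) and 0 rose, and its median was −0.051. Citrate synthase CIT1 differed by −0.10, fumarase FUM1 by −0.05 and succinate dehydrogenase SDH1 by 0.14, none of them called. IDH1 and ACO1 are also the 2 called of the 12 measured genes of the retrograde response (16.7%, against 0.404% of all genes), through which damaged mitochondria signal to the nucleus, and the median of that list was −0.155. CIT2, its usual marker, was at 12.40 with SMER2 and 12.42 to 12.71 in the reference (difference −0.17 ± 0.13, limma adjusted p = 0.779).

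NDE1, a mitochondrial NADH dehydrogenase that oxidises cytosolic NADH, was at 11.89, 12.06 and 12.08 with DMSO, 12.01 with SMER4, 11.99 with SMER5 and 11.33 with SMER2. It fell by 0.68 ± 0.10 (limma adjusted p = 0.0175) and was the 1 called gene among 36 of respiration and ATP synthase (2.78%, against 0.404% of all genes), whose median was −0.042. ALD4, the mitochondrial aldehyde dehydrogenase, fell by 0.41 ± 0.06 (adjusted p = 0.0266). It was at 11.69 with SMER2 and between 12.05 and 12.16 in the reference. PDH1, a methylcitrate dehydratase of propionate breakdown, was at 9.30, 9.14 and 9.07 with DMSO, 9.36 with SMER4, 9.53 with SMER5 and 8.14 with SMER2. Its fall of 1.14 ± 0.16 was 2.21-fold (adjusted p = 0.0175). The PDH1 difference was −0.82 after quantile normalization and −0.73 with the dimmest 25% of genes also left out, and the call was lost with only the 6 arrays in the fit and without the SMER4 array (adjusted p = 0.109 and 0.051). HAP4, the activating subunit of the Hap complex, was at 9.26 with SMER2 and 10.05 to 10.44 in the reference, with a difference of −0.94 ± 0.22 that was not called (adjusted p = 0.144). HAP1, HAP2, HAP3 and HAP5 differed by 0.01 to 0.15. HAP4 and these genes came from a list of respiration regulators added after the values were seen.

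In purine metabolism 2 of 21 genes fell (9.52%, against 0.404% of all genes) and 0 rose. HPT1, which salvages hypoxanthine and guanine into nucleotides, was at 12.74, 12.58 and 12.59 with DMSO, 12.60 with SMER4, 12.54 with SMER5 and 11.61 with SMER2. The fall was 1.01 ± 0.13, or 2.01-fold (limma adjusted p = 0.0128). MTD1, a folate dehydrogenase that feeds one-carbon units to purine synthesis, was at 12.19, 12.38 and 12.29 with DMSO, 12.31 with SMER4, 12.24 with SMER5 and 11.80 with SMER2. Its fall of 0.48 ± 0.08 lay close to the threshold (adjusted p = 0.0473), and its call held in 6 of 22 alternative settings. With rapamycin, SMER1 and SMER3, HPT1 differed from the reference by −1.03, −1.81 and −1.525, and MTD1 by −1.04, −1.53 and −0.45. The median of the purine list with SMER2 was −0.105. Of its members, 10 lay below all reference arrays (47.6%, against 23.6% of all genes) and 0 above (against 15.1%). IMD2 and IMD3, of guanine nucleotide synthesis, differed by −0.41 and −0.29, with adjusted p of 0.202 for each.

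Chaperone genes made up part of the few rises that were called. Of 23 targets of Hsf1, 2 rose (8.70%, against 0.0918% of all genes) and 0 fell. The median of the list was 0.175, against −0.025 over all genes, and 15 of 23 members lay above all reference arrays, against 15.1% of all genes. HSP104, a cytosolic disaggregase, was between 12.94 and 13.03 on the DMSO arrays, at 12.96 with SMER4, 13.12 with SMER5 and 13.54 with SMER2. It rose by 0.53 ± 0.08, or 1.44-fold (limma adjusted p = 0.0176), and was not called after quantile normalization (adjusted p = 0.0788). HSP78, its mitochondrial counterpart, was at 11.62, 11.57 and 11.59 with DMSO, 11.64 with SMER4, 11.76 with SMER5 and 12.17 with SMER2, a rise of 0.53 ± 0.08 (adjusted p = 0.0176).

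The larger differences among the chaperones belonged to genes that were not called. SSA4, an inducible Hsp70, was at 11.64 with SMER2 and 10.53 to 10.87 in the reference, with a difference of 0.95 ± 0.19 (limma adjusted p = 0.0855). HSP42, a small heat shock protein, was at 11.77 against 10.53 to 11.10, with a difference of 0.87 ± 0.17 (adjusted p = 0.0742). HSP26 differed by 0.35 and HSP82, an Hsp90, by 0.32. The Msn2 and Msn4 targets of the general stress response had a median of 0.017, and of its 31 measured members 1 was called, ALD4, which fell (3.23%, against 0.404% of all genes). HSP12 and CTT1, markers of that response, differed by 0.02 and 0.07.

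The other 3 rises were those of SRL3, TMT1 and YER079W. SRL3, which was found as a suppressor of the loss of the checkpoint kinase Rad53, was at 9.81, 9.82 and 9.74 with DMSO, 9.73 with SMER4, 9.83 with SMER5 and 10.47 with SMER2. It rose by 0.68 ± 0.07, or 1.61-fold (limma adjusted p = 0.00238). The 5 reference arrays lay close together, from 9.73 to 9.83, and the SMER2 array was above all of them. TMT1, a methyltransferase that acts on trans-aconitate, was at 11.15 with SMER2 and 10.57 to 10.68 in the reference, a rise of 0.51 ± 0.08 (adjusted p = 0.0266). YER079W, a gene of unknown role, was at 10.72 against 10.27 to 10.38, a rise of 0.40 ± 0.07 (adjusted p = 0.0493), and its call held in 6 of 22 alternative settings. Beside the chaperone genes HSP42 and SSA4, the next genes by p that lay above all reference arrays were YBR062C, RCN2, a regulator of calcineurin, DDI1, a ubiquitin-linked protease gene, ARG4, of arginine synthesis, and YOL038C-A, at differences of 0.38 to 0.45 and adjusted p of 0.0593 to 0.0846, none of them called.

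Of the 22 falls, 9 were in the dimmest 25% of genes, where the SMER2 array was lower as a whole (median −0.10); CTF19 is one of them. YML003W, a gene of unknown role, was at 5.65 with SMER2 and between 6.77 and 7.36 in the reference, a fall of 1.51 ± 0.22 (limma adjusted p = 0.0176). DAL1, allantoinase, was at 4.90 against 5.74 to 6.27, a fall of 1.15 ± 0.19 (adjusted p = 0.0343). RRT6 fell by 0.93 ± 0.16, MCM10, a factor of replication initiation, by 0.79 ± 0.14, and YHL012W by 0.79 ± 0.12. YHK8, a presumed drug transporter gene, fell by 0.88 ± 0.10 (adjusted p = 0.00621). After quantile normalization, which narrows the spread of the SMER2 array to that of the others, 7 of these 9 genes were no longer called by limma. The differences became −1.12 for YML003W, −1.01 for CTF19, −0.84 for DAL1, −0.49 for RRT6, −0.48 for YHK8, −0.47 for MCM10 and −0.37 for YHL012W, with adjusted p between 0.117 and 0.347. YLR156W, read by a probe set shared between similar transcripts, fell by 0.96 ± 0.09 (adjusted p = 0.00238) and kept its call in all 20 alternative settings that included it, at a difference of −0.52 after quantile normalization. ESC2, a SUMO-like protein of silencing and genome stability, was at 9.48 with SMER2 and 9.96 to 10.12 in the reference, a fall of 0.56 ± 0.08 (adjusted p = 0.0176), and of 0.47 after quantile normalization (adjusted p = 0.0237).

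Among the brighter genes, BYE1, an elongation factor related to TFIIS, was at 10.59, 10.52 and 10.60 with DMSO, 10.49 with SMER4, 10.62 with SMER5 and 10.04 with SMER2. It fell by 0.52 ± 0.07 (limma adjusted p = 0.0175).

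**Figure D3:**
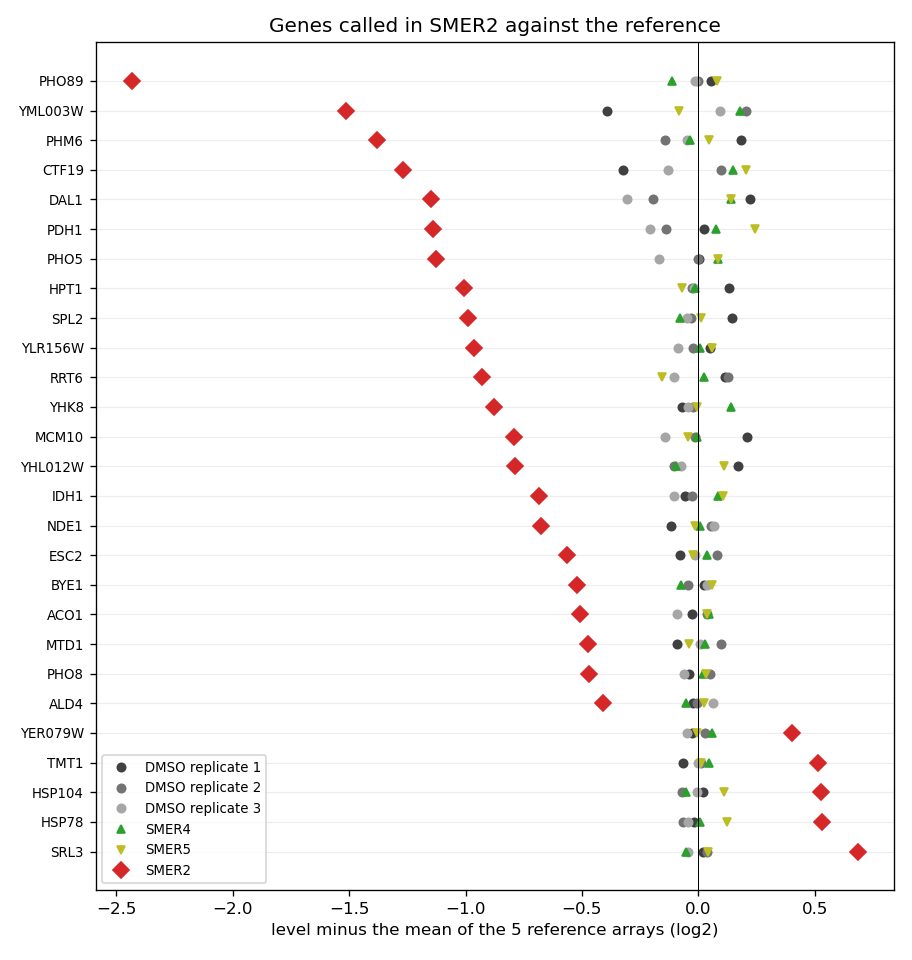
Log2 difference from the mean of the 5 reference arrays for the 27 called genes, 1 mark per array (diamond for SMER2). For each gene the SMER2 mark lies outside the range of the reference marks, from −2.43 for PHO89 to 0.68 for SRL3.

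With rapamycin, which was given at another dose, some of the same phosphate genes were low. PHO89 was at 9.65 and 9.55 on the rapamycin arrays, 12.52 and 12.62 on the SMER1 arrays and 12.42 with SMER3. The SMER2 value of 10.04 stood 0.45 above rapamycin (95% interval 0.09 to 0.80, limma adjusted p = 0.0395), 2.53 below SMER1 (adjusted p = 2.31e-06) and 2.37 below SMER3 (adjusted p = 1.55e-05). SPL2 was at 11.72 and 11.66 with rapamycin, and SMER2 differed from it by −0.06 (interval −0.33 to 0.21, adjusted p = 0.71). PHM6 differed between SMER2 and rapamycin by 0.22 (interval −0.10 to 0.55, adjusted p = 0.22), and PHO5 by −0.13 (interval −0.46 to 0.20, adjusted p = 0.483). A p above the threshold does not show that these values are equal. PHO8 was 1.26 lower with SMER2 than with rapamycin (adjusted p = 1.79e-06), and PHM8 4.37 lower (adjusted p = 4.51e-08). Against the reference these 2 genes differed with rapamycin by 0.80 and 3.77.

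SMER2 was set against SMER1 and SMER3, which were given at the same dose and for the same time, in 2 pairs, with p-values adjusted over all genes within each pair. limma called 2978 genes between SMER2 and SMER1 (54.7%) and 1647 between SMER2 and SMER3 (30.2%). Between SMER2 and rapamycin 2844 were called (52.2%). PHO5 was 0.29 lower with SMER2 than with SMER1 (interval −0.62 to 0.04, adjusted p = 0.118) and 1.17 lower than with SMER3 (adjusted p = 0.000659). PHM6 was 1.21 lower than with SMER1 (adjusted p = 9.04e-05), and differed from SMER3 by 0.18 (interval −0.19 to 0.55, adjusted p = 0.461). PHO89 and SPL2 were lower with SMER2 than with either of the other SMERs, SPL2 by 1.31 and 1.03 (adjusted p = 2.23e-05 and 0.000514). HPT1 was 0.80 higher with SMER2 than with SMER1 (adjusted p = 0.00109).

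Of the mitochondrial genes, IDH1 and ACO1 were lower with SMER2 than with rapamycin, and NDE1 was not called between them. Against the reference, IDH1 differed by 1.01 with rapamycin, 0.65 with SMER1 and 0.75 with SMER3, each above 0, beside −0.69 with SMER2. Set directly, IDH1 was 1.70 lower with SMER2 than with rapamycin (limma adjusted p = 1.73e-06) and ACO1 was 1.51 lower (adjusted p = 1.10e-06). NDE1, with −0.53 for rapamycin against the reference, differed between SMER2 and rapamycin by −0.15 (interval −0.38 to 0.09, adjusted p = 0.278), and was 1.14 lower than with SMER1 (adjusted p = 2.22e-05). The 2 called chaperone genes were lower with SMER2 than with SMER1 and SMER3, HSP104 by 0.51 and 0.30 and HSP78 by 0.62 and 1.29. Between SMER2 and rapamycin they differed by −0.04 and −0.21. SRL3, TMT1 and YER079W differed from the reference by 3.30, 2.78 and 1.57 with rapamycin, and by 1.82, 2.08 and 1.86 with SMER1. With SMER3 these 3 genes differed from it by 1.04, 0.03 and 1.92.

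Counting the genes called both against the reference and against rapamycin in the same direction left 14, all lower, where 36.2% of all genes were called lower than with rapamycin. Both comparisons used the same SMER2 array, so a low value on it lowers both differences together. The median difference of all genes between SMER2 and rapamycin was −0.193. The 14 genes were ACO1, ALD4, BYE1, DAL1, ESC2, IDH1, MCM10, PDH1, PHO8, RRT6, YHK8, YHL012W, YLR156W and YML003W. After quantile normalization the count was 8. Of the 27 called genes, 8 were not called against rapamycin, PHM6, SPL2 and PHO5 among them.

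**Figure D4:**
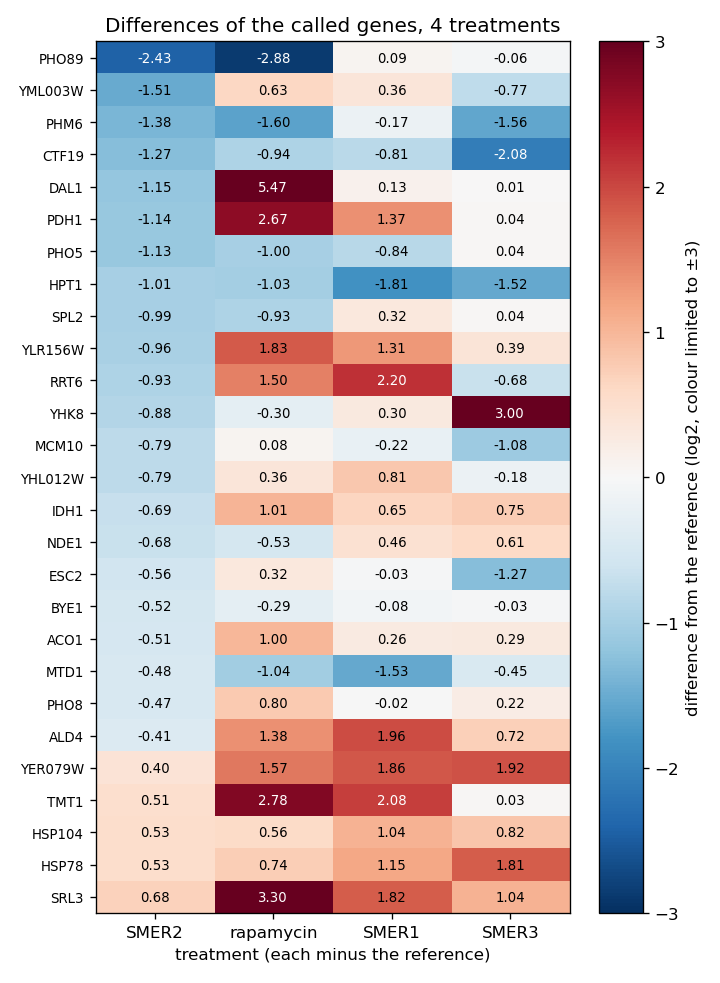
Log2 differences from the reference for the 27 called genes with SMER2, rapamycin, SMER1 and SMER3, as a grid with the value in each cell and the colour limited to ±3. The 4 comparisons share the 5 reference arrays, so their values are set side by side only; PHO89 reads −2.43, −2.88, 0.09 and −0.06.

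The gene lists of other pathways had few or no called members. Of 44 lists, 7 held at least 1 called gene, and in each of the other 37 limma called 0. In those 37 lists the medians ran from −0.254 to 0.223, and 0 to 8 members had an unadjusted p under 0.05. The lowest was that of galactose and maltose use, whose median was −0.017 after quantile normalization. The highest median was that of the Pdr1 and Pdr3 targets of drug resistance, where PDR5, SNQ2 and YOR1, drug efflux pumps, differed by 0.26, 0.54 and 0.44. The SMER5 array, part of the reference, was above every DMSO array for each of them, at 13.55, 12.45 and 11.96. SMER2 was at 13.63, 12.74 and 11.96. The median of the proteasome list was 0.094, and 13 of its 33 members lay above all reference arrays (39.4%, against 15.1% of all genes) and 0 below (against 23.6%). In the sulfur amino acid list 18 of 32 members lay below all reference arrays (56.2%, against 23.6% of all genes) and 1 above, with a median of −0.162 as deposited and −0.087 after quantile normalization. Cytosolic ribosomal proteins and ribosome biogenesis factors had medians of 0.003 and −0.06. In nitrogen catabolite repression 1 of 27 members fell (3.70%, against 0.404% of all genes), DAL1, and DAL80, MEP2 and GAP1 differed by −0.26, 0.22 and 0.16.

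The strain and cell type markers read as follows. URA3 was at 3.59 with SMER2, within 3.01 to 4.55 in the reference, and MET17 at 4.05 and LEU2 at 7.69, further genes altered in BY4741, were low beside array medians near 11. HIS3, which is partly deleted in this strain, was at 12.74. STE2, the receptor for alpha factor, was at 13.27, as an a-cell gene, and limma called 0 of the 7 measured a-cell genes (0 at an unadjusted p under 0.05) and 0 of the 5 alpha-cell genes (1 lower at an unadjusted p under 0.05).

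**Figure D5:**
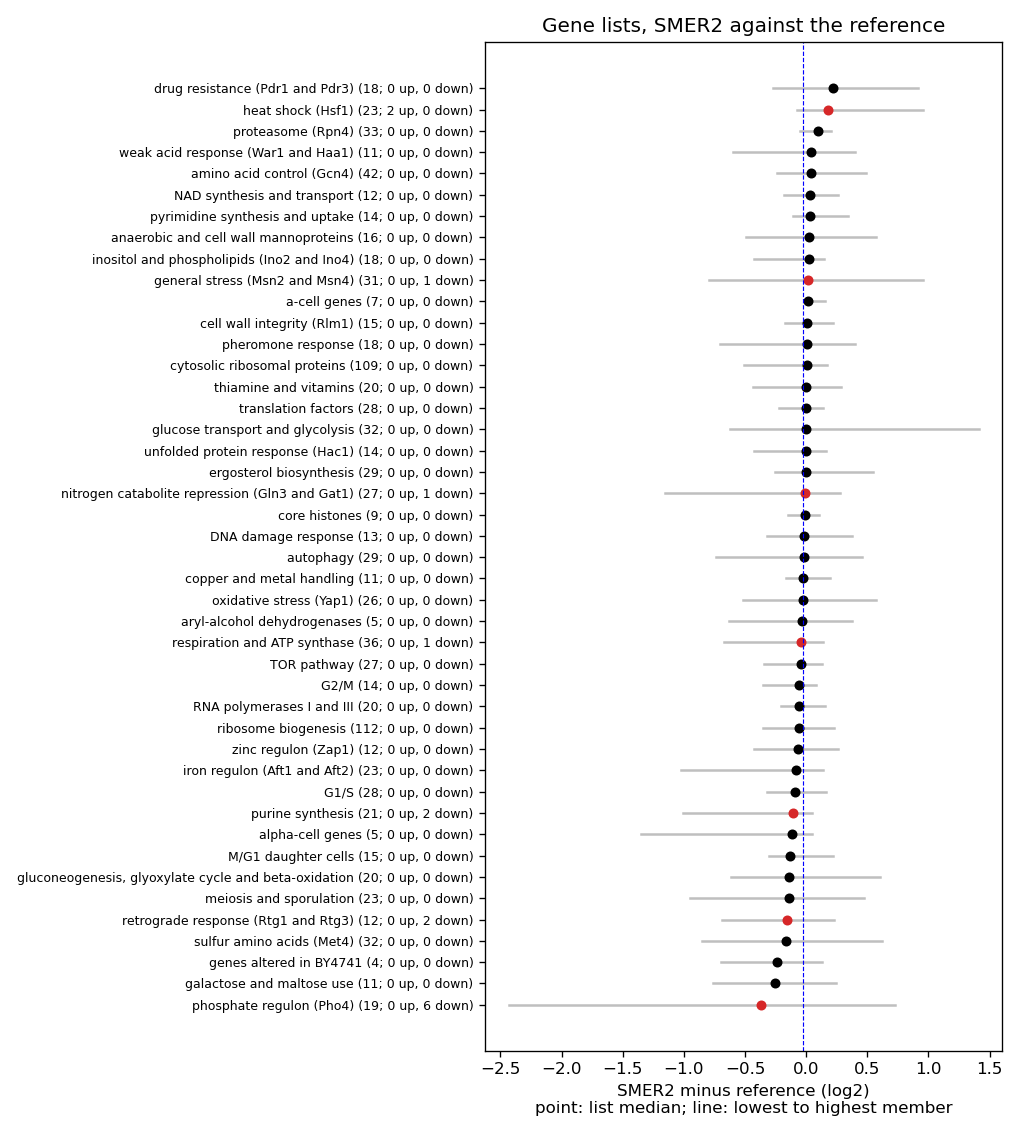
Median log2 difference (point) and range from the lowest to the highest member (line) for the 44 gene lists, SMER2 minus the reference (log2), with the median of all genes, −0.025, as a dashed line, lists with a called member in red, and the members measured and called in brackets. The phosphate list has a median of −0.367 and the heat shock list of 0.175.

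With DMSO alone as the reference, in a fit that gave each label group its own mean, limma called 17 genes (0.312%), of which 5 rose (0.0918%) and 12 fell (0.22%). They included 11 of the 27 and 6 others. PHO89 fell by 2.44 (adjusted p = 0.00249) and PHM6 by 1.38 (adjusted p = 0.0284), and SRL3 rose by 0.68 (adjusted p = 0.0284). IDH1 fell by 0.62 (adjusted p = 0.0321), and SPL2 and PHO5 fell by 1.01 and 1.07 (adjusted p = 0.0321 and 0.0392). Among the 6 others, GRE2, a reductase gene, was 0.86 higher than in DMSO (adjusted p = 0.0284), but SMER4 and SMER5, at 11.63 and 11.76, were about as high as SMER2, at 11.73. ICT1 was 0.69 higher than in DMSO, at 11.894 with SMER2, 11.563 with SMER5 and 11.245 with SMER4. The remaining 4, DAK2, NUT2, YEL075C and YHR210C, fell and were all dim.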

How the data were processed

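Arrays of total RNA were one-colour Affymetrix yeast arrays, labelled with One-Cycle Target Labeling, per the labels' protocols. The authors deposited log2 signal intensities of 5716 probe sets, whose log2 scale was judged from their range of 0 to 14.67. The sources used here do not state how probes were summarised or arrays normalized. These values were used as deposited, with column medians between 10.99 and 11.07.

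Symbols came from the platform annotation, with 12 updated from the R64 table, used for names and gene order only. For the 47 genes with several probe sets the one with the highest mean was kept, and 218 unnamed probe sets were left out. A model with 1 mean for each of 6 groups was fitted to all 13 arrays with limma 3.58.1 in R 4.3.3 (lmFit, eBayes; 7 residual degrees of freedom) and tested on simulated data. The simulation gave the SMER2 array the same spread as the other arrays and no shift in dim genes. It therefore cannot check the assumption on which the calls rest. The number of arrays limits the precision.

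The comparison, reference, gene lists and named genes were chosen with earlier results of these data known. Named were all called genes, genes of smallest p to fill each direction to 12, leading members of each list, and reference genes of the strain and of known pathways. Other reference groups, normalizations, filters, variance models and left-out arrays were tried. No sequences were used here.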

Additional observations from a re-analysis of the deposited data

Results flagged for a closer look

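HPT1 was flagged because 1 of its 5 reference arrays stood apart from the others: DMSO replicate 1 was at 12.74, and the next highest array at 12.60. About 1 in 20 such groups would be flagged by chance alone. The SMER2 value of 11.61 lay below every reference array.

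When the unnamed probe sets, which no comparison above used, were fitted with the rest, 2 of the 218 were called lower with SMER2 by limma. The probe set 1774631_at differed by −0.82 ± 0.12 (adjusted p = 0.0176), from a reference mean of 8.49 to 7.67. The probe set 1777872_at differed by −1.35 ± 0.23 (adjusted p = 0.0458), from a reference mean of 7.57 to 6.22.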

How the results depend on the processing

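Of the 27 calls, those of PHO89, PHM6, PHO5 and SRL3 held in all 22 alternative settings. That of YLR156W held in all 20 that included it, and none of the 27 differences changed sign. These settings did not include the fits against DMSO alone with a DMSO array left out. In those fits SRL3 was not called without DMSO replicate 1 or replicate 3. PHO89, PHM6 and PHO5 were not all called in any of them. The calls of IDH1 and SPL2 held in 21 of 22, HPT1 and PDH1 in 20, HSP78 and BYE1 in 19, HSP104 in 18, ACO1, NDE1 and PHO8 in 17, TMT1 in 11, ALD4 in 10, and MTD1 and YER079W in 6. Of 20 settings that kept the dim genes, YHK8 was called in 19, ESC2 in 15, YML003W in 14, YHL012W in 11, CTF19 in 10, RRT6 in 8, and DAL1 and MCM10 in 6. The count fell to 17 with DMSO alone as reference, to 12 with SMER4 and SMER5 alone, and to 9 with only the 6 arrays in the fit. Leaving out single arrays gave 10 (without SMER4 replicate 1) to 34 (without DMSO replicate 3). Higher genes made up 18.5% of the calls as deposited, 30.4% after quantile normalization (7 higher, 16 lower), 33.3% without the dimmest 25% of genes (8 higher, 16 lower), 29.4% with an intensity trend (10 higher, 24 lower) and 44.4% with the filter and quantile normalization together (16 higher, 20 lower). The phosphate list had between 3 and 8 members called lower in these settings. It had fewer than 3 in each fit against DMSO alone with a DMSO array left out. Against DMSO alone, 17 became 11 after quantile normalization and 3 to 7 when a DMSO array was left out (5 without replicate 1, 7 without replicate 2, 3 without replicate 3). Quantile normalization moved the share of higher calls from 30.6% to 47% against rapamycin, from 37.4% to 52.4% against SMER1 and from 35% to 55.3% against SMER3, and the median of all genes from −0.19 to −0.02, −0.12 to 0.04 and −0.03 to 0.10. The reference of SMER4 and SMER5 alone, the fit of all probe sets and the filter with quantile normalization were chosen after seeing the data. The settings are not separate checks, since all of them used the same SMER2 array. Leaving out either SMER1 array gave the same fit of SMER2 against the reference. So did either rapamycin array, and either array of SMER1 with rapamycin. No paired analysis was possible because SMER2 had 1 array, so the groups compared share a single replicate number.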
